A study of Mus musculus with 9 samples.

Results

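The genes described here write, read or erase methylation of histone H3 at lysine 9 (H3K9) in mouse embryonic stem cells (mESCs), or belong to the KAP1 machinery that directs it. They are 10 genes, of 21713 genes with a probe in the deposited series table: the methyltransferase genes Setdb1, Ehmt1, Ehmt2, Suv39h1 and Suv39h2, the co-repressor gene Trim28, the heterochromatin protein 1 (HP1) genes Cbx1 and Cbx5, the chromatin remodeller gene Atrx and the demethylase gene Kdm1a. Membership was by gene symbol with no cut on a measured value, but the genes were chosen with earlier results of these data known. All 10 genes had a probe, 16 probes of 30170 in all. Transcript levels came from 9 single-colour Agilent arrays, 3 per group, of male E14Tg2a mESCs (strain 129P2/OlaHsd) grown in GMEM with serum and LIF. The wild-type (WT) group was the parental line. The Ring1B -/- group (KO) had lost exon 3 of Rnf2, the gene of RING1B, on both alleles. The Ring1B I53A/I53A group (I53A) carried on both alleles a knock-in of a RING1B that enters Polycomb repressive complex 1 (PRC1) but lacks E3 ubiquitin ligase activity. Both mutants were derived from the WT line, and the sources used here describe no second, independent line of either genotype, so line and mutation cannot be told apart. The methods describe the arrays of a group as biological replicates without saying whether each came from its own culture. A p-value here therefore measures the spread between samples within a line, not between independent lines. In the main fit each probe had 1 estimate of that spread, shared by all 9 arrays.

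H3K9 methylation marks a silent chromatin state that is separate from the one laid down by Polycomb complexes. KRAB zinc finger proteins bind DNA, above all in retroviral elements, and recruit KAP1, the protein of Trim28. KAP1 in turn brings SETDB1, which trimethylates H3K9, and HP1 proteins, which bind that mark. G9a and GLP, the proteins of Ehmt2 and Ehmt1, act as a pair and place mono- and dimethylation, whereas the SUV39H enzymes trimethylate H3K9 at pericentromeric repeats. ATRX deposits histone H3.3 at telomeres, repeats and imprinted loci, and LSD1, the protein of Kdm1a, removes methyl groups from H3K4 and H3K9. In mESCs these proteins hold retroviral elements and genes of the 2-cell stage embryo silent. The comparison therefore asked whether the transcripts of this second silencing system differed where RING1B, or only its ligase activity, was lost.

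None of the 10 genes was called up- or down-regulated in KO or I53A cells, or between the mutants. A call required a change above 2-fold together with a Benjamini-Hochberg adjusted p under 0.05 over the probes of the table (limma moderated test). With the brightest probe of each gene, 4.09% of all genes were called in KO against WT, 0.401% in I53A against WT and 1.46% in KO against I53A. For the 10 genes the count was 0 in each comparison, it was also 0 at an adjusted p under 0.05 without the fold threshold, which 4.5%, 0.401% and 1.47% of all genes passed, and it was 0 at an unadjusted p under 0.05, which 18.3%, 9.77% and 11.7% of all genes passed. No member had groups that did not overlap in any comparison, against 25.7%, 18.4% and 16.0% of all genes. The members' median log2 fold change (log2FC) was −0.14 in KO against WT, 0.00 in I53A against WT and −0.19 in KO against I53A, where all genes had −0.02, −0.01 and −0.02. Their median absolute log2FC was 0.18, 0.23 and 0.25, beside 0.32, 0.26 and 0.26 for all genes.

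The stem cell genes Pou5f1, Nanog, Sox2, Esrrb, Klf4 and Tdgf1 were above background on every array that measured them, although Sox2 was down-regulated in KO (log2FC −1.03, limma adjusted p 0.042). The others were not called in KO. Nanog (log2FC 1.06), Tdgf1 (0.95) and Klf4 (0.67) were higher there, and Esrrb (−0.92) and Pou5f1 (−0.21) were lower. Of the endoderm markers, Gata6 (log2FC 2.09), Gata4 and Sox17 were called up-regulated in KO. Gata4 and Sox17 were above background on 0 WT arrays and on 2 and 1 KO arrays. Set against the background limit, defined below, they were 1.81-fold and 2.17-fold higher. Dab2 was at background in both groups. Of the fibroblast markers, Thy1 was up-regulated (log2FC 1.31), whereas Col1a2 (−0.98, adjusted p 0.026) and Col1a1 (−0.57, adjusted p 0.169) were lower without being called, and Fbn1 was at background. No trophoblast marker (Cdx2, Gata3 and Elf5) was called. In I53A against WT no marker of any of these lists was called. The largest changes there were those of Esrrb (log2FC −1.41, limma adjusted p 0.213) and Thy1 (1.29, limma adjusted p 0.072). The part of these differences in the results was not tested. Rnf2 had 1 probe, with log2 signals of 8.32, 8.27 and 8.47 in WT, 7.35, 7.92 and 8.08 in KO, and 8.69, 9.10 and 8.59 in I53A, and whether it lies inside exon 3 is not known here, so these values do not check the labels. Of the 2 slides, the second carried 1 array of each group (KO 1, WT 3 and I53A 3) and the first carried the rest. Within a slide the groups occupied different columns, and a column effect cannot be told apart from a group effect. Between 45.4% and 57.5% of table probes were above background on an array, and the number of arrays limits the precision. As these are bulk RNA samples, fewer expressing cells and less RNA per cell cannot be told apart.

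Promoters of 3 members are shown because they span the range from a gene measured well on all arrays (Trim28) to genes near background (Setdb1 and Atrx). Each stretch is the 250 bases before the annotated start, from RefSeq on GRCm38.p6, 5′ to 3′ on the gene's strand, with CG dinucleotides in capitals.
Trim28, chr7:13023902-13024151, plus strand: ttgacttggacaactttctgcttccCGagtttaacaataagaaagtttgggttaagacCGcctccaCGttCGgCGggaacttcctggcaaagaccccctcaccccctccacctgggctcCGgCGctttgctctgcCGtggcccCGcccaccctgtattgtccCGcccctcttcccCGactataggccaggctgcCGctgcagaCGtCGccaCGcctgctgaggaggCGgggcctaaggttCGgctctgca
Setdb1, chr3:95357203-95357452, minus strand: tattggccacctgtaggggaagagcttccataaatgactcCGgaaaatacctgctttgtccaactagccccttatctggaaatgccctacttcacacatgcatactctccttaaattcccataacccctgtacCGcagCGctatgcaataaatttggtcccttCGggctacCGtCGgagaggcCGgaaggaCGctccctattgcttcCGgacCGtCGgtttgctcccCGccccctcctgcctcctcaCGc
Atrx, chrX:105929373-105929622, minus strand: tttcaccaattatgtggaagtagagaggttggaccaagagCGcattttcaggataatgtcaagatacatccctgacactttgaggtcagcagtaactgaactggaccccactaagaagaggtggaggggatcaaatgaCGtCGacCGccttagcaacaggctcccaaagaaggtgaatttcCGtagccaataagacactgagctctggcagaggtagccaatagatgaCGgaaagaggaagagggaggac
These stretches hold 17, 13 and 6 CG dinucleotides.

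The reference table gave 13 windows of 300 bases for the 10 genes, from 250 bases before a start to the 50 after it. They held a median of 28 CG dinucleotides, with a range of 8 to 40, where all 32851 windows had a median of 7. The fewest, 8, were at one of the starts of Cbx5, and the most, 40, at one of those of Ehmt2. The median GC content was 61.3%, against 52.7% for all windows. The letters GGGCGG, the core of sites for SP and KLF factors, were found on either strand for 8 of the 10 genes. They were in 11 of the 13 windows, and 35.7% of all windows held them. The letters TTCCCGCC, a form of the E2F site, were found in 2 of the 13, for Trim28 and Suv39h2, and in 2.19% of all windows. CACGTG, an E-box, was found in 3 of the 13, for Cbx5 and Ehmt2, and in 7.15% of all windows. CCAAT was found in 5 of the 13, for 5 genes, and in 37.4% of all windows. No member window held TATAAA, which 13.6% of all windows held, or the NRF1 motif, which 0.971% held. Such matches describe the letters of these windows and do not show binding.

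Trim28 encodes KAP1, the scaffold of the system. Its log2 signal was 10.27, 10.13 and 10.20 in WT, 10.22, 11.33 and 10.09 in KO, and 10.57, 10.17 and 10.02 in I53A, in replicate order here and below. One KO array, KO 2, stood above all others, and the remaining KO arrays lay within or just below the WT range. The KO change was a log2FC of 0.35 (SE 0.33, 95% confidence interval −0.38 to 1.08, limma adjusted p 0.645), the largest in size among the members, and it was −0.04 without KO 2. In I53A the log2FC was 0.06, with an interval of −0.67 to 0.79. KO 2 was the highest KO array for 7 of the 10 members. The genes whose signal followed Trim28 most closely over the 9 arrays, among 6198 genes with a mean log2 signal above 7, were Dctpp1 (Pearson r 0.94), ENSMUSG00000024258 (0.94) and 2700062C07Rik (0.92), and these correlations share the KO 2 value.

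Setdb1 encodes the methyltransferase that KAP1 recruits, and its only probe was dim. Its log2 signal was 5.18, 5.61 and 6.17 in WT, 5.74, 6.09 and 5.40 in KO, and 4.80, 4.58 and 6.55 in I53A. The probe was above background on 1 WT array, 3 KO arrays and 1 I53A array. The I53A spread was the widest of any member (SD 1.08, n = 3), with the lowest and the highest of all 9 values in that group. The KO change had a log2FC of 0.09 (interval −0.98 to 1.17). The I53A change had a log2FC of −0.34 (interval −1.42 to 0.73). Both intervals extend beyond 2-fold, so a change of that size was not excluded for Setdb1.

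Ehmt2 and Ehmt1 encode the G9a and GLP partners. Ehmt2 had log2 signals of 8.86, 8.93 and 8.96 in WT, 8.10, 9.60 and 8.44 in KO, and 9.39, 8.74 and 10.02 in I53A. The WT arrays lay close together, whereas the mutant arrays fell on both sides of them and overlapped each other. Between the mutants the log2FC of Ehmt2 was −0.67 for KO against I53A (SE 0.41, interval −1.58 to 0.25, limma adjusted p 0.625). It ranged from −1.11 without KO 2 to −0.35 without I53A 3, with −0.36 without KO 1, and was −0.040 on slide 1 alone. Against WT its log2FC was −0.20 in KO (interval −1.12 to 0.72) and 0.47 in I53A (interval −0.45 to 1.38). Without KO 2 the KO log2FC was −0.64, and without KO 1 it was 0.11, so the sign of the KO value rested on single arrays.

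Ehmt1 had log2 signals of 7.41, 8.08 and 8.11 in WT, 7.95, 7.91 and 7.57 in KO, and 7.40, 7.74 and 7.76 in I53A. All groups overlapped. Its log2FC was −0.06 in KO (interval −0.63 to 0.52) and −0.24 in I53A (interval −0.81 to 0.34), both within 2-fold. A second, dimmer Ehmt1 probe gave group means of 6.63, 6.06 and 6.35 in WT, KO and I53A, with overlapping groups and no call.

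Suv39h1 and Suv39h2 encode the paired enzymes of pericentromeric heterochromatin, the former X-linked. Suv39h1 had the smallest standard error of the members, with log2 signals of 6.86, 6.85 and 6.61 in WT, 6.78, 6.42 and 6.48 in KO, and 7.19, 6.77 and 7.01 in I53A. KO means lay below and I53A means above WT, yet the highest KO array and the lowest I53A array overlapped. The difference between the mutants, a log2FC of −0.43 (SE 0.22, interval −0.92 to 0.06), had the smallest unadjusted p of any member's brightest probe, 0.077, and a limma adjusted p of 0.515. Against WT the log2FC was −0.21 in KO and 0.22 in I53A, with intervals within 2-fold in all 3 comparisons. On chromosome X the median log2FC of 909 other genes in KO against WT was −0.05. For the 236 of these with a mean log2 signal above 7, a level Suv39h1 did not reach, it was −0.22. The part of such a shift in the Suv39h1 value was not tested.

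Suv39h2 had log2 signals of 8.96, 9.16 and 9.80 in WT, 9.65, 8.78 and 9.09 in KO, and 8.91, 9.65 and 9.58 in I53A. Its groups covered nearly the same range. The log2FC was −0.13 in KO (interval −0.86 to 0.60) and 0.07 in I53A (interval −0.66 to 0.80), so each interval lay within 2-fold. A second Suv39h2 probe, above background on 6 of 9 arrays, gave group means of 5.56, 5.48 and 5.59.

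**Figure D1:**
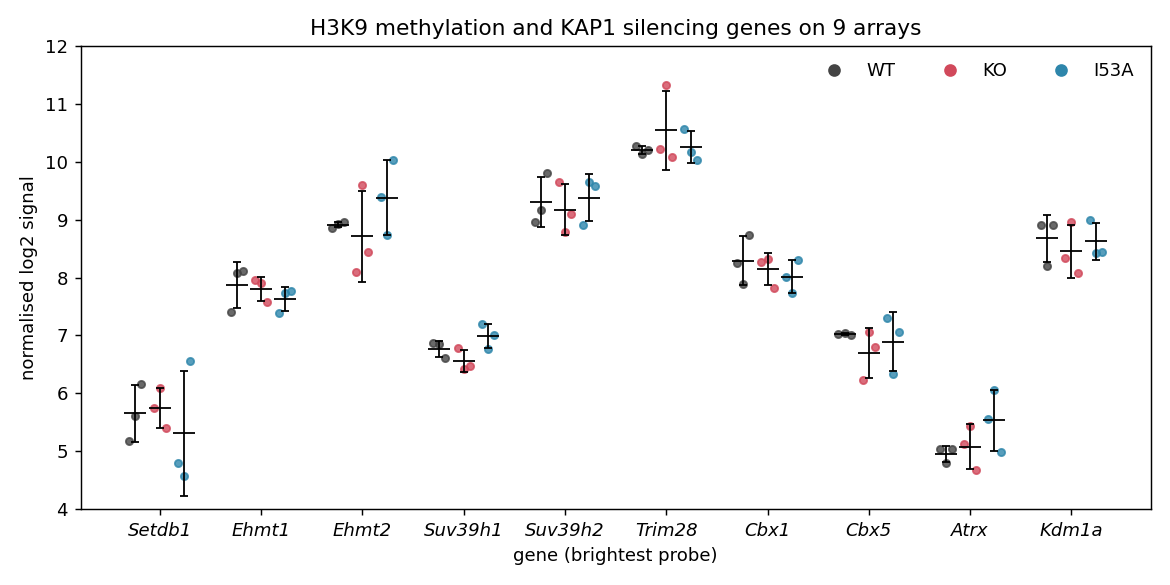
Normalised log2 signal (arbitrary units) of the brightest probe of each of the 10 genes on 9 arrays, with WT, KO and I53A points left to right, a bar at the group mean and whiskers of 1 SD (n = 3). The groups overlapped for every gene, and the KO array at 11.33 for Trim28 stood apart from the other 2 KO arrays.

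Cbx1 and Cbx5 encode HP1β and HP1α, which bind methylated H3K9. The bright Cbx1 probe gave log2 signals of 8.26, 7.89 and 8.73 in WT, 8.27, 8.32 and 7.82 in KO, and 8.02, 7.73 and 8.30 in I53A. The log2FC was −0.15 in KO (interval −0.77 to 0.47) and −0.28 in I53A (interval −0.90 to 0.35), and all groups overlapped. Same-numbered I53A and WT arrays deviated together, and within these pairs the log2 difference of I53A from WT was −0.24, −0.16 and −0.43 for Cbx1 and −0.015, −0.34 and −0.35 for Ehmt1, the only members of 1 sign in all 3 pairs. With the replicate number as a block over all 9 arrays the limma adjusted p was 0.831 for Cbx1 and 0.837 for Ehmt1. That block also took in the KO arrays, which were not paired by number, so it does not test these pairs alone. Cbx1 lies on chromosome 11, where the median log2FC of 1708 genes in KO against WT was 0.22. For the 559 of these with a mean log2 signal above 7, as Cbx1 had, it was 0.35. Relative to the median of the 1708 genes the KO log2FC of Cbx1 was −0.37. The part of the chromosome-wide shift in the Cbx1 value was not tested.

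Cbx5 had log2 signals of 7.03, 7.04 and 7.0 in WT, 6.23, 7.06 and 6.80 in KO, and 7.30, 6.33 and 7.06 in I53A. The WT spread was the smallest of any member (SD 0.02, n = 3). The lowest array of each mutant lay below the WT range and the highest above it. The KO log2FC was −0.33 (SE 0.30, interval −1.0 to 0.35, limma adjusted p 0.642), and the I53A log2FC was −0.13 (interval −0.80 to 0.55). A second Cbx5 probe gave group means of 5.99, 5.57 and 5.75, in the same order, with overlapping groups.

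Atrx encodes a remodeller that works with DAXX and histone H3.3. Its brightest probe gave log2 signals of 5.03, 4.80 and 5.04 in WT, 5.13, 5.44 and 4.68 in KO, and 5.55, 6.06 and 4.99 in I53A. It was above background on 0 WT, 2 KO and 3 I53A arrays, so the WT signal is a background reading. The fitted log2FC of I53A against WT was 0.58 (SE 0.31, interval −0.10 to 1.26, limma adjusted p 0.639), with I53A 3 inside the WT range and a value of 0.32 without I53A 2. That of KO was 0.13 (interval −0.55 to 0.81, adjusted p 0.889).

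Atrx was the member with the most probes, all of them dim. Their opening 30 bases, of 60 each, as the deposited table gives them, are shown because the probes differ in sequence and none was above background throughout.
Atrx probe 1, brightest: attttaaagggcctgaatttagaagcagaa
Atrx probe 2: ttaatcatgactccttctaactaccagcag
Atrx probe 3: tttactagacatgggaatttttatatggtc
Probe 2 gave group means of 4.77 in WT, 4.69 in KO and 4.60 in I53A and was above background on 2 of 9 arrays. Probe 3 gave 3.45, 4.47 and 4.65 and was above background on 1 of 9 arrays. Probe 3 in I53A against WT was the only comparison of all 16 member probes at an unadjusted p under 0.05 (0.047, limma adjusted p 0.533), and 9.2% of all table probes passed that threshold. With so few arrays above background, the Atrx probes cannot be set against each other. The second Cbx1 probe was above background on 0 of 9 arrays, where the bright one was on all 9. The second probe began with gcatatgttgtcaccaaaaagtttgaggaa and the bright one with gagaataccaaatcttcagattaactgatg. Where these probes lie in their transcripts was not established here.

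**Figure D2:**
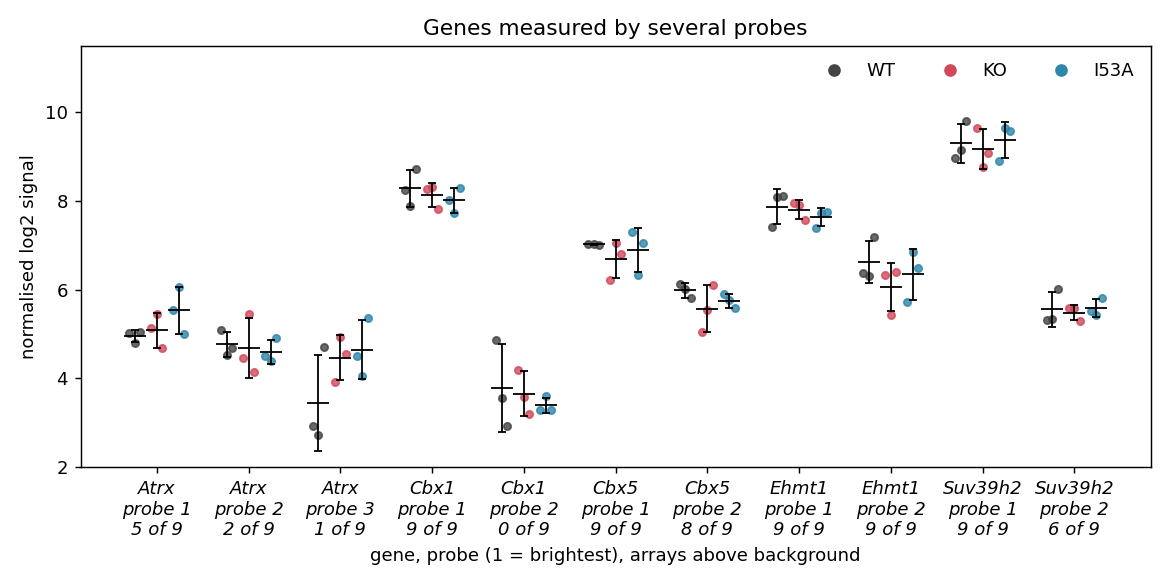
Normalised log2 signal (arbitrary units) of each probe of the 5 genes with several probes, with points for 9 arrays, group means and whiskers of 1 SD (n = 3). The numbers under each probe give the arrays on which it was above background, from 9 of 9 for the brightest probes of Cbx1, Cbx5, Ehmt1 and Suv39h2 to 0 of 9 for the second Cbx1 probe.

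Kdm1a encodes LSD1, the demethylase of the CoREST complex. Its log2 signal was 8.92, 8.21 and 8.91 in WT, 8.33, 8.95 and 8.07 in KO, and 8.99, 8.43 and 8.45 in I53A. Each group spanned most of the common range. The log2FC was −0.23 in KO (interval −0.92 to 0.46) and −0.06 in I53A (interval −0.75 to 0.64).

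The intervals set how large a change could have been missed for the 8 members above background on all 9 arrays, and the dim Setdb1 and Atrx probes set no such limit. The 95% interval of the KO change lay within 2-fold for 5 of these 8, and the exceptions were Trim28, Ehmt2 and, narrowly, Cbx5. In I53A against WT it lay within 2-fold for 7, with Ehmt2 as the exception. Between the mutants it lay within 2-fold for 6, with Trim28 and Ehmt2 as exceptions. The fit behind these intervals did not use the pairing of WT and I53A arrays by number. The members had a lower mean in KO than in WT for 7 of 10 genes, but for 2 of 10 when each array was scaled to its 75th percentile, so no common direction can be given. The mutants' comparisons share the WT arrays. Within a group the members' median SD came to 0.27 for WT, 0.41 for KO and 0.37 for I53A.

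**Figure D3:**
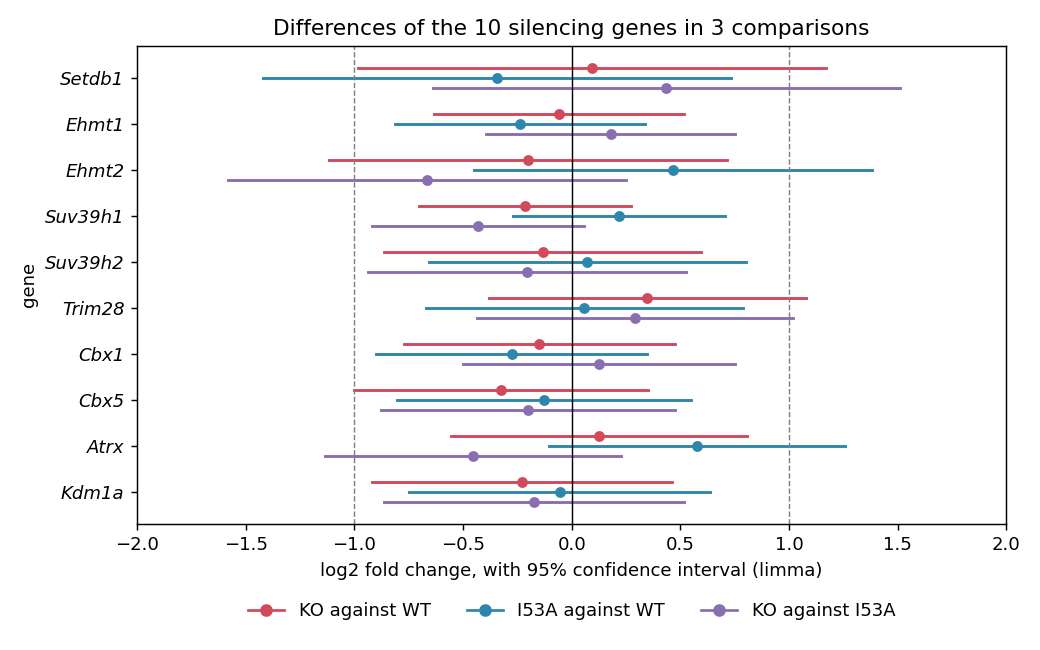
Log2 fold change with its 95% confidence interval (limma, 3 arrays per group) for each of the 10 genes in the comparisons of KO and I53A with WT and with each other, with dashed lines at 2-fold. Every interval crosses 0, and those of Setdb1 and Ehmt2 pass a dashed line in all 3 comparisons.

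The other genes of the pathway were taken from a list by role, of which 48 had a probe. In KO against WT 2 of these 48 were called, 1 in each direction, beside 4.09% of all genes, and 9 were at an unadjusted p under 0.05 (5 higher, 4 lower), beside 18.3%. In I53A against WT limma called 0, with 2 at an unadjusted p under 0.05 beside 9.77% of all genes, and in KO against I53A it called 0, with 5 beside 11.7%. Groups did not overlap for 11, 6 and 9 of the 48, or 22.9%, 12.5% and 18.8%, where the shares over all genes were 25.7%, 18.4% and 16.0%. The median log2FC of the 48 was 0.09 in KO, −0.03 in I53A and 0.16 in KO against I53A.

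Zfp809, a KRAB zinc finger gene whose protein recruits KAP1 to retroviral sequences, was up-regulated in KO. Its log2 signal was 6.82, 6.40 and 7.27 in WT, 8.91, 9.06 and 7.84 in KO, and 7.34, 7.47 and 7.5 in I53A. Every KO array lay above every WT and I53A array. The KO log2FC was 1.78 (SE 0.34, limma adjusted p 0.018), the I53A log2FC was 0.61 (adjusted p 0.650), and KO against I53A gave 1.17 (adjusted p 0.175). The mean of all its probes gave a KO log2FC of 1.14. The adjusted p rose above the threshold without WT 1 (log2FC 1.77), WT 2 (1.56), KO 1 (1.62) or KO 2 (1.55), on slide 1 alone (1.84), with normexp background correction (1.35), with a replicate block and with only the KO and WT arrays fitted (1.78 in both).

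Jmjd1c, of the JMJD1 family of H3K9 demethylases, was down-regulated in KO. Its log2 signal was 8.65, 8.37 and 8.97 in WT, 7.36, 7.66 and 7.66 in KO, and 8.41, 8.38 and 8.15 in I53A. The KO arrays lay below all others. The KO log2FC was −1.11 (SE 0.23, limma adjusted p 0.026), the I53A log2FC was −0.35 (adjusted p 0.694), and KO against I53A gave −0.75 (adjusted p 0.198). The call was lost without WT 1 (log2FC −1.12), WT 3 (−0.96), KO 1 (−1.01), KO 2 (−1.16) or KO 3 (−1.16), on slide 1 alone (−0.85), with 75th percentile scaling (−0.90), with normexp (−0.70), with the mean of its probes (−0.93), with a replicate block and with only the KO and WT arrays fitted (−1.11 in both).

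By role, among the KAP1 family and recruiting zinc finger genes 1 of 5 was called in KO, which was Zfp809, and among the H3K9 demethylases 1 of 8, which was Jmjd1c. No gene was called in any comparison among the 2 other H3K9 methyltransferase genes, the 7 partners of SETDB1 and of G9a and GLP, the 6 HUSH and MORC genes, the 6 genes of the ATRX, DAXX, H3.3 and CAF-1 group, the 7 of the LSD1 complex, or the 7 H4K20 methyltransferases and cofactors.

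Genes of the 2-cell stage are known to be held silent by KAP1, SETDB1, G9a and LSD1. Of 17 with a probe, 11 were called in KO against WT, all higher, where 2.92% of all genes were called higher. The other 6 did not pass. Tdpoz3 (log2FC 1.34, limma adjusted p 0.053) and Tcstv1 (0.61) were higher in KO, with 0 WT arrays above background. Spz1 (0.50) and Tdpoz1 (0.07) were at background in both groups. Zfp352 (−0.43) and Zfp750 (−0.13) were lower in KO. This list was chosen with earlier results of these data known, so its counts describe it and are not a test. How it differs from the 10 silencing genes was not tested. In I53A against WT 1 was called, Gm2022, where 0.29% of all genes were called higher, with 2 called when WT 2 was left out. In that comparison 9 of the 17 were at an unadjusted limma p under 0.05 (8 higher, 1 lower), beside 9.77% of all genes. Groups did not overlap for 8 of the 17 (7 higher, 1 lower), or 47.1%, beside 18.4% of all genes. Between KO and I53A 9 were called, all higher in KO, where 1.06% of all genes were. Tdpoz4, a gene of a speckle-type BTB family, had log2 signals of 2.41, 2.39 and 2.95 in WT, not above background. In KO it had 6.62, 6.94 and 6.94, which was 8.92-fold higher against the background limit. Usp17lb, a deubiquitinase gene, had 3.22, 3.04 and 3.18 in WT, not above background. In KO it had 7.36, 6.70 and 7.11, or 10.4-fold higher against that limit. Both lay at background in I53A, as no array of that group measured either above it. The remaining genes with the largest changes were Pramel6, Gm2022, Gm8300 and Zscan4a. These genes belong to families of near-identical copies, so a probe can report on several of them.

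**Figure D4:**
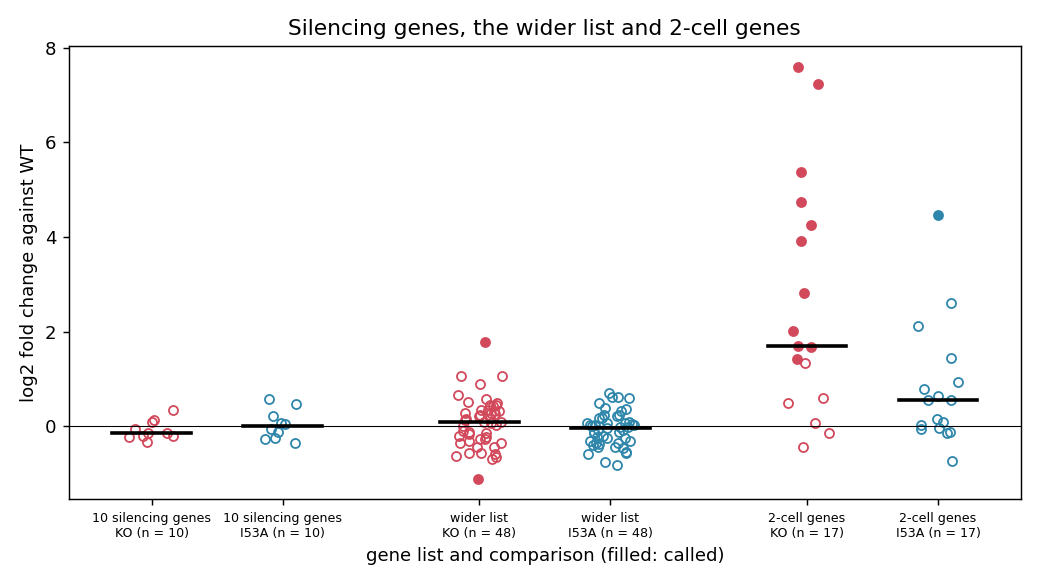
Log2 fold change against WT in KO and I53A cells for the 10 silencing genes, the 48 other genes of the pathway list and the 17 genes of the 2-cell stage, with a bar at each median and filled points for called genes. The silencing genes lie between −0.34 and 0.58 with 0 called, and 11 of the 17 genes of the 2-cell stage are called in KO. The lists were chosen with earlier results of these data known. For genes at background in WT the plotted value is the fitted one, not the fold against the background limit.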

How the data were processed

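The authors extracted spots with Agilent Feature Extraction 11.5.1.1, and the deposited scan files hold processed intensity on a linear scale with background already subtracted. The deposited series table holds log2 values quantile normalised by the authors for 30170 probes (build mm10 per the labels). The columns of the authors' own comparisons in it, fold changes and p-values, were not used. Groups and replicate numbers came from the sample titles, since another label gives every KO sample the same replicate number.

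In R 4.3.3 with limma 3.58.1, control and outlier-flagged spots were left out, processed intensities were log2 transformed, repeat spots of 432 probes were averaged, and arrays were quantile normalised over 55681 probes. All table probes were fitted with a mean for each group, leaving 6 residual degrees of freedom, and tested two-sided with eBayes and Benjamini-Hochberg adjustment. Of the table probes, 26929 had 1 symbol, 19 several and 3222 none, and the brightest probe stood for a gene. Above background means well above background by the scanner software. A fold against the background limit sets the bright group's mean against the higher of the dim probe's own signal and that limit. The limit is the lowest signal of any probe above background on that array. On the WT arrays the brightest Atrx probe exceeded this limit yet was not above background. Such a fold is therefore not a strict lower bound.

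The 10 genes, the pathway list (54 other genes, 6 without a probe) and the 2-cell list (29 genes) were chosen with earlier results of these data known. Named were all members, called genes of the pathway list, at most 6 of the 2-cell list with the largest changes, Rnf2, and the 3 genes most like the member with the largest KO change. Scripts were tested on simulated data. The scan files hold no mean signal, so the normexp alternative used the median signal. Same-numbered WT and I53A arrays deviated together (r 0.39, 0.21 and 0.26 across probes) and shared a slide, so the numbers were taken as pairing these groups. The main fit did not use this pairing, so its p-values and intervals of I53A against WT leave it out. KO arrays were not paired with same-numbered WT or I53A arrays. Alternatives covered scaling, background, filters, slide, replicate number, left-out arrays and probe choice.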

Additional observations from a re-analysis of the deposited data

How the results depend on the processing

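Of the 10 silencing genes 0 were called by limma in each of the 3 comparisons under all 20 alternatives, with between 0 and 2 at an unadjusted p under 0.05. Their adjusted p was never below 0.233. The sign of small differences did change, in 48 of 601 recomputed values, the largest of size 0.353, and the cause was not tested. Many of the 601 values could not change sign. The log2FC is the same by construction with a block, with only the compared groups fitted or with other sets of probes tested. Leaving out an array of the group not compared also keeps it. With each array scaled to its 75th percentile the KO log2FC against WT was 0.14 for Ehmt1, 0.068 for Ehmt2, 0.15 for Suv39h2, 0.10 for Cbx1 and 0.030 for Kdm1a, and KO against I53A gave 0.057 for Suv39h2 and 0.071 for Kdm1a. With normexp background correction KO against WT gave 0.059 for Cbx1, 0.027 for Cbx5 and −0.034 for Atrx, I53A against WT gave −0.35 for Suv39h2 and 0.10 for Cbx5, and KO against I53A gave 0.22 for Suv39h2 and 0.11 for Kdm1a. On slide 1 alone KO against WT gave 0.13 for Ehmt2 and 0.0023 for Cbx1, I53A against WT gave 0.15 for Kdm1a, and KO against I53A gave 0.12 for Cbx5. With the mean of all probes Ehmt1 had −0.056 in KO against I53A.

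Leaving out 1 array at a time changed the sign of some values, so their ranges are given. In KO against WT these were −0.14 to 0.35 for Setdb1, −0.044 to 0.58 for Trim28, −0.29 to 0.064 for Ehmt1, −0.64 to 0.11 for Ehmt2, −0.37 to 0.11 for Suv39h2, −0.35 to 0.069 for Cbx1 and −0.055 to 0.33 for Atrx. In I53A against WT they were −0.97 to 0.021 for Setdb1, −0.10 to 0.17 for Trim28, −0.099 to 0.32 for Suv39h2, −0.33 to 0.16 for Cbx5 and −0.29 to 0.063 for Kdm1a. In KO against I53A they were −0.10 to 0.52 for Trim28, −0.018 to 0.28 for Cbx1, −0.48 to 0.035 for Cbx5 and −0.42 to 0.018 for Kdm1a.

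The pathway list count in KO against WT went from 2 to 0 with normexp, on slide 1 alone, with only the compared groups fitted and with a replicate block, to 1 with the mean of all probes, to 4 with dim probes left out, and to between 0 and 2 without single arrays, with 0 without WT 1 or KO 1 and 1 without WT 2, WT 3 or KO 3. The smaller fits hold fewer arrays. The 2-cell count in KO against WT fell from 11 to 7 on slide 1 alone, the count in KO against I53A from 9 to 5 with normexp and on slide 1 alone, and the count in I53A against WT rose from 1 to 2 with the values of the series table, the slide as a block or the probe mean, to 3 with dim probes left out, and was 1 to 2 without single arrays. The replicate block changed no call of a member and moved no 2-cell count by more than 1.5 times. The KO arrays share only a number with the others, as same-numbered correlations were −0.23, −0.04 and −0.16 with WT and −0.23, −0.32 and 0.03 with I53A. KO 2 deviated most like WT 1 (0.28) and I53A 1 (0.43), KO 3 like WT 2 (0.21) and I53A 2 (0.16), and KO 1 like WT 3 (0.31) and I53A 2 (0.14), so the block does not group KO arrays with those most like them, a hint from the data and not from the design. Testing all non-control probes was chosen after seeing the data. Setdb1 and Atrx were near background, which limits what their probes can show.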
